A study of Rattus norvegicus with 90 samples.

Results

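The transcripts described here are 150 transcripts of rat cardiomyocytes that were near the floor in rat hepatocytes and renal cells. They were chosen from the 40071 annotated transcripts in 2 steps. First, 17065 transcripts with a mean below 0.5 TPM (an abundance corrected for transcript length and scaled to a fixed total per library) in each of the 6 hepatocyte and each of the 6 renal conditions were kept, leaving out hepatocyte library MS-183. Then the 150 with the highest mean TPM in cardiomyocytes given vehicle for 9 h were taken. The 150 are called members below.

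Hepatocytes, renal tube epithelial cells and heart cardiomyocytes of Sprague-Dawley rats were exposed in culture to vehicle, a low dose or a high dose of thioacetamide-S-oxide for 9 or 24 h, with 5 RNA libraries per condition and 90 libraries in all. Cardiomyocytes received 0.5 mM as the low dose and 1.5 mM as the high dose. Lower concentrations were used for the hepatocytes (0.025 mM low, 0.125 mM high) and the renal tube epithelial cells (0.125 mM low, 0.5 mM high). How the cardiomyocyte cultures were prepared is not given in the sources used here. The labels do not name the cardiomyocyte vehicle or say whether the 5 libraries of a group came from separate animals, so p-values measure the spread between these libraries. The question addressed here is how transcripts that separate cardiomyocytes from both other cell types responded to the compound.

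Thioacetamide-S-oxide is the first oxidation product of thioacetamide, a compound used to injure the liver of rodents. It is converted further to a reactive metabolite that binds proteins. Cardiomyocytes are the contractile muscle cells of the heart. They carry transcripts for sarcomere proteins, calcium handling, ion channels and natriuretic peptides that liver and kidney cells largely lack, and cultures prepared from heart tissue commonly also hold fibroblasts and endothelial cells.

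The deposited tables and the gene table used here did not pair Ensembl transcripts with gene names, and 0 of 40071 transcripts were matched. The members are therefore given by identifier. Their functions, their promoters and the lists of sarcomere, calcium handling, natriuretic peptide, transcription factor, metabolic and other-cell genes drawn up for cardiomyocytes could not be looked up, and the cell type on the label was not checked against its markers.

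The 30 cardiomyocyte libraries held between 11519925 and 61897142 estimated counts, with 89.0 to 94.6% of them on transcripts. Low-dose libraries MS-158 (9 h) and MS-172 (24 h) stood apart from the other 28. The 10 transcripts with the highest mean TPM in vehicle at 9 h took 28.8 and 27.8% of their TPM, against 7.02 to 14.5% in the other libraries. Together with high-dose library MS-178 (24 h), they were also the libraries with the fewest transcripts detected, at 19579, 17277 and 18015, against 21619 to 24742 in the other 27. For each comparison that includes any of these 3 libraries, the numbers of members called lower and higher are given with and without them.

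The levels in vehicle at 9 h, which chose the members, are a description. The median member was at 6.23 TPM. Of the 150 members, 8 were at 100 TPM or more, 24 at 25 TPM or more, 49 at 10 TPM or more and 93 at 5 TPM or more. The last members inside the limit of 150 were ENSRNOT00000082884 at 2.97 TPM and ENSRNOT00000086868 at 2.94 TPM, and the first outside were ENSRNOT00000052367 at 2.94 TPM and ENSRNOT00000026261 at 2.92 TPM. At the limit of 0.5 TPM, ENSRNOT00000022441 was just inside with a highest mean of 0.498 TPM in another cell type, and ENSRNOT00000084851 was just outside with 0.501 TPM.

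The list began with ENSRNOT00000082548, at 237.97, 236.1, 245.7, 231.5 and 255.8 TPM in the 5 vehicle libraries at 9 h. ENSRNOT00000082744 followed with 142.4, 147.7, 135.5, 138.7 and 148.98 TPM. The 10 highest members held 47.9% of the summed TPM of all 150, so the sum was weighted towards a few transcripts. In the other cell types, 21 members had their highest condition mean in hepatocytes and 10 were listed at 0 in all 59 libraries other than MS-183, while the rest had theirs in renal cells.

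The rule left out most of the abundant transcripts that separated these cells. Of 63 transcripts with at least 100 TPM in vehicle at 9 h and at least 10 times the mean of every hepatocyte and renal condition, 8 were members. The highest of the 63, ENSRNOT00000005311, had a mean of 6545 TPM and missed the limit because its highest renal mean was 302 TPM and its highest hepatocyte mean 7.79 TPM. The members thus describe transcripts of low to middle abundance, which together made up 0.267% of the total TPM in vehicle at 9 h.

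The members resembled other transcripts in length. Their median length was 2046 bases (82 to 18310), against 2022 bases for the 13247 transcripts at or above the lowest member in vehicle at 9 h. Within 0.01, the estimated counts of every library were whole for 71 members (47.3%) and for 43.6% of those transcripts. Counts that are not whole come from reads that fit several transcripts and were divided among them. ENSRNOT00000079138 and ENSRNOT00000014917, both 9363 bases long, had equal counts and cannot be told apart.

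The summed level of the members was lower in the high-dose cultures than in vehicle at 24 h, while few members were absent. The summed TPM of the members at 24 h was 3465, 3465, 3501, 3119 and 3487 in the vehicle libraries. In the high-dose libraries it was 2200, 2159, 2046, 2064 and 2089. All 5 high-dose libraries lay below all 5 vehicle libraries, and the ratio of the mean sums was 0.620 ± 0.035 (SD carried from both groups, n = 5 each). Of the 150 members, 96 to 98% had a value above 0 in the vehicle libraries and 95.3 to 97.3% in 4 of the high-dose libraries, with 88.0% in MS-178, so most members remained detectable.

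The low-dose sums at 24 h spread widely, at 2728, 1449, 2576, 3336 and 2692 TPM. Library MS-172 had the lowest sum of the 30 cardiomyocyte libraries and MS-174 lay inside the vehicle range. The remaining 3 lay between the vehicle and the high-dose libraries. The ratio of low dose to vehicle was 0.750 ± 0.204, and 0.831 without MS-172.

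At 9 h the sums were 2627, 2663, 2657, 2579 and 2830 TPM in vehicle. They were 2324, 2254, 1520, 2166 and 2306 TPM at the low dose, where MS-158 was the lowest. At the high dose they were 1988, 2041, 1969, 1823 and 1861 TPM. Both doses lay below vehicle, which is a description because vehicle at 9 h chose the members. The high-dose libraries lay below the low-dose libraries other than MS-158, with a ratio of 0.916 ± 0.153 that became 0.856 without MS-158.

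**Figure D1:**
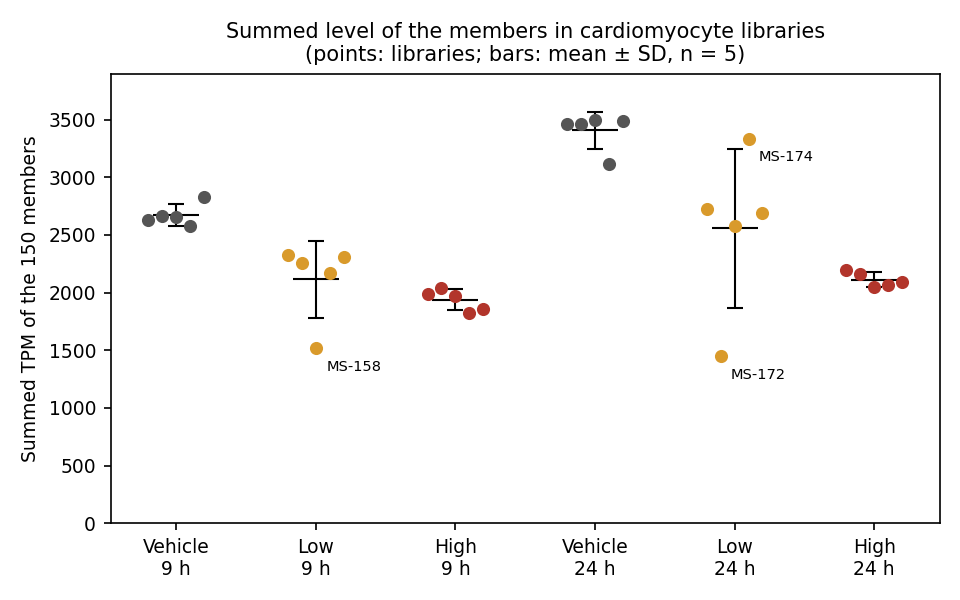
Summed TPM of the 150 members (vertical axis) in the 5 libraries of each cardiomyocyte condition (horizontal axis), with points for libraries and bars for the mean ± SD. The 5 high-dose libraries at 24 h lie between 2046 and 2200 TPM, below the vehicle libraries at 3119 to 3501 TPM, and the low-dose libraries MS-158 and MS-172 lie below the rest of their groups.

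In hepatocytes the summed TPM of the members was 4.50 to 8.31 in the 29 libraries other than MS-183, and in renal cells it was 10.4 to 22.5. These values follow from the rule. They set the floor against which the cardiomyocyte levels can be read. In bulk RNA, fewer cells of a type and less RNA per cell cannot be told apart, which holds for every difference below.

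For the high dose against vehicle at 24 h, all but 9 of the 150 members passed the filter on low counts. These 9 were 82 to 314 bases long, 8 of them under 200 bases. A transcript was called when its adjusted p was at most 0.05 and its natural-log fold change at least 0.41 in size, which is a fold of about 1.5. Of the members tested, 63 were lower (44.7%) and 9 were higher (6.38%) at the high dose. Among all 17286 transcripts tested, 6.39% were called lower and 6.01% higher. Among the 12674 of them at or above the lowest member in vehicle at 9 h, 5.37% were called lower and 4.83% higher.

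The median log2 fold change of the members was -0.69 (quartiles -1.23 and -0.08), against 0.00 for all transcripts tested. The value was below 0 in 110 members. Of the called decreases, 39 were at least 2-fold and 12 at least 4-fold, against 3.31 and 0.746% of all transcripts tested that were called lower at these sizes. Without MS-178 these members were 41 and 11, against 3.8 and 0.651%. In 78 members all 5 high-dose libraries lay below all 5 vehicle libraries in CPM (counts scaled to library size), as did 14% of all transcripts tested, and in 10 members they lay above, as did 12.5%. Without MS-178 they lay below in 81 members and above in 12, against 16.1 and 15.6%. In the fit without MS-178, 69 members were lower and 10 higher, against 7.54 and 6.42% of all transcripts tested.

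Members were called lower in each of 3 ranges of their TPM in vehicle at 9 h. Among those ranked 1 to 50, 20 of 48 tested were lower, with a median log2 fold change of -0.51, against 4.5% called lower among all transcripts at the same levels. Among ranks 51 to 100, 21 of 49 were lower, with a median of -0.59, against 6.94%. Among the last 50 ranks, 22 of 44 were lower, with a median of -0.90, against 7.52%. Without MS-178 the lower members were 20, 24 and 25, against 4.61, 7.93 and 8.55%. In TPM, the mean sum of the 10 highest members was 1592 in vehicle and 1076 at the high dose (ratio 0.676), and that of the other 140 was 1815 and 1036 (ratio 0.571), so the 10 highest carried 39.8% of the difference.

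Fold changes are relative to edgeR's scaling (TMM), under which the median transcript barely moved. On the deposited TPM scale the median log2 ratio over all transcripts tested was -0.13 for high dose against vehicle at 24 h, -0.34 for low dose against vehicle at 24 h, 0.20 for high against low dose at 24 h, 0.21 for high against low dose at 9 h and -0.18 for 24 against 9 h at the high dose. The medians of the members on that scale were -0.84, -0.43, -0.33, -0.23 and 0.07. A change printed in TPM therefore differs from its log2 fold change by about these shifts.

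**Figure D2:**
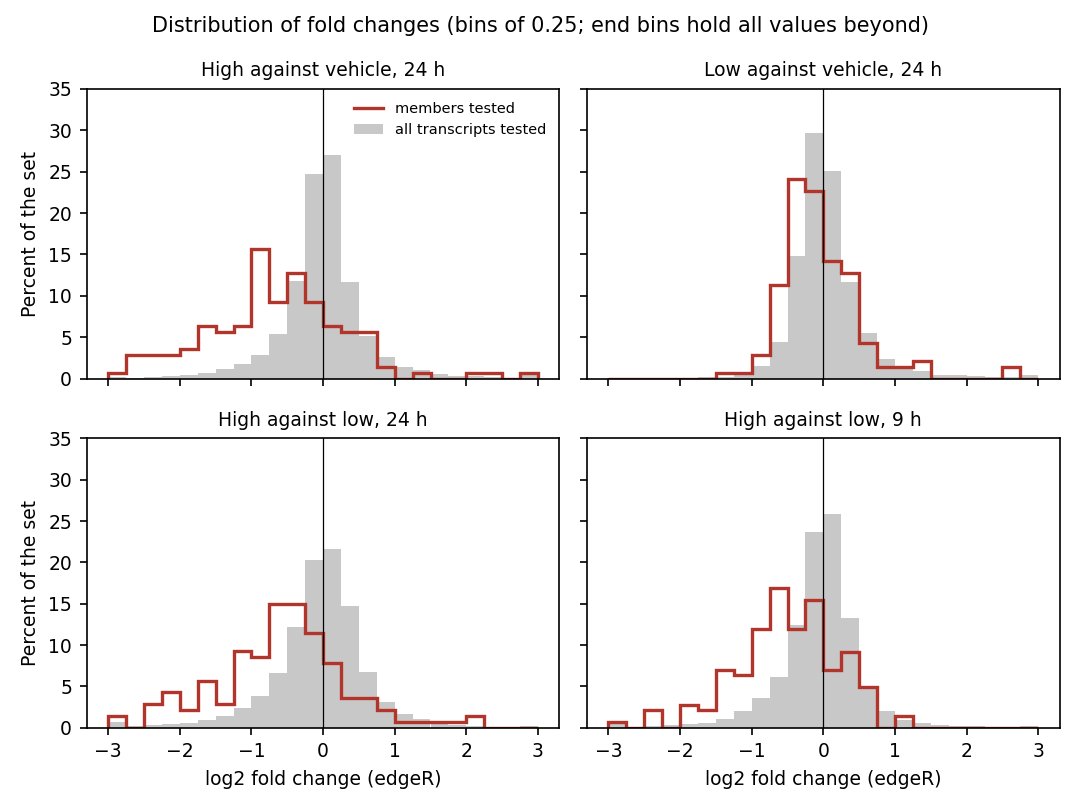
Percent of the members tested (red line) and of all transcripts tested (grey bars) in bins of log2 fold change, for 4 comparisons. The members lie to the left of all transcripts for high dose against vehicle at 24 h (medians -0.69 and 0.00) and for high against low dose at 9 h (medians -0.49 and -0.01), and largely overlap them for low dose against vehicle at 24 h (medians -0.10 and -0.01).

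The 8 members named next had the largest decreases among the 44 called lower whose mean log2 CPM reached 3. ENSRNOT00000014229 was at 36.2, 32.3, 34.2, 29.8 and 32.5 TPM in vehicle at 24 h and at 4.72, 4.91, 2.85, 5.15 and 5.04 TPM at the high dose. Its log2 fold change was -2.70 (SE 0.14, adjusted p = 1.17e-07). ENSRNOT00000017765 was at 24.8, 24.4, 24.9, 22.4 and 25.6 TPM in vehicle and at 4.51, 4.37, 4.48, 4.50 and 4.56 TPM at the high dose. In vehicle at 9 h the 2 transcripts had lower means than in vehicle at 24 h, at 17.5 and 7.82 TPM. At 24 h both were several times lower in every high-dose library than in any vehicle library. The 5 high-dose values of ENSRNOT00000017765 were nearly equal. Its log2 fold change was -2.31 (SE 0.04, adjusted p = 5.74e-11), which was the smallest adjusted p of any member.

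ENSRNOT00000006264 fell from 27.6, 27.3, 27.3, 22.1 and 25.5 TPM to 6.32, 6.30, 3.40, 4.59 and 4.98 TPM. ENSRNOT00000000893 fell from 19.9, 18.8, 22.6, 17.8 and 20.4 TPM to 3.93, 3.69, 1.75, 4.16 and 3.69 TPM. ENSRNOT00000017948 fell from 11.3, 11.6, 11.0, 11.7 and 12.3 TPM to 1.97, 1.84, 2.25, 1.55 and 1.53 TPM. In none of these did the 2 groups overlap. Their log2 fold changes were -2.18 (SE 0.16), -2.36 (SE 0.19) and -2.53 (SE 0.11), with adjusted p between 4.46e-08 and 3.56e-06. In vehicle at 9 h their means were lower than in vehicle at 24 h, at 7.34, 5.91 and 4.09 TPM.

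ENSRNOT00000035722, ENSRNOT00000058615 and ENSRNOT00000010247 started lower. Their means fell from 8.80 ± 0.57, 7.26 ± 0.80 and 9.90 ± 0.50 TPM in vehicle to 1.24 ± 0.28, 1.16 ± 0.19 and 1.6 ± 0.27 TPM at the high dose (SD, n = 5). Their log2 fold changes were -2.68 (SE 0.14), -2.51 (SE 0.11) and -2.47 (SE 0.12). The 2 groups did not overlap in any of the 3. In vehicle at 9 h the means of the 3 were lower than in vehicle at 24 h, at 3.80, 5.57 and 4.38 TPM. All 8 calls held with each library left out in turn.

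In the low-dose cultures at 24 h these 8 members lay between the other groups on average, with MS-174 as the highest low-dose library for each. ENSRNOT00000017765 was at 12.6, 6.77, 11.3, 22.5 and 13.1 TPM, and ENSRNOT00000006264 at 14.6, 6.28, 12.1, 28.5 and 14.3 TPM. In both, MS-174 was at the level of vehicle and MS-172 the lowest of the group.

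**Figure D3:**
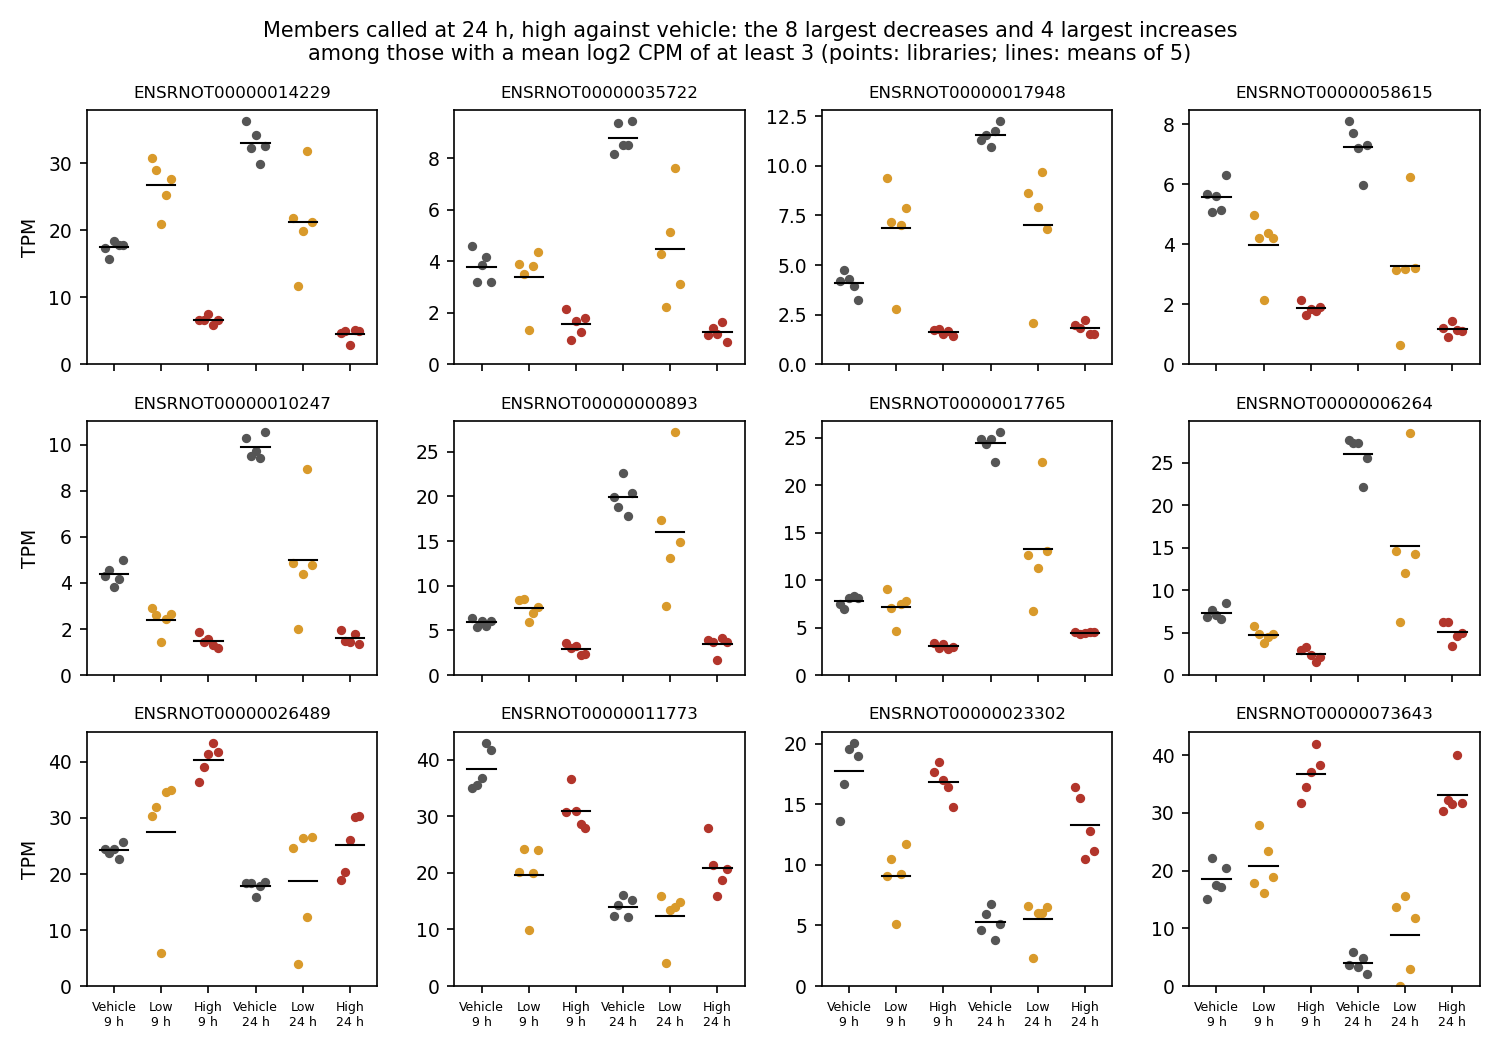
TPM by library (vertical axes, from 0) of the 8 members chosen for their decreases and the 4 chosen for their increases for high dose against vehicle at 24 h, among those called whose mean log2 CPM reached 3, in the 6 cardiomyocyte conditions (horizontal axes). Points are libraries and lines are means of 5. ENSRNOT00000017765 stands at 22.4 to 25.6 TPM in vehicle at 24 h and at 4.37 to 4.56 TPM at the high dose, and ENSRNOT00000073643 at 2.18 to 5.96 and 30.3 to 40.0 TPM.

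The 9 members that were higher at the high dose included ENSRNOT00000073643, which had the largest increase. It was at 3.58, 5.96, 3.30, 4.81 and 2.18 TPM in vehicle at 24 h and at 30.3, 32.3, 31.6, 40.0 and 31.7 TPM at the high dose. The log2 fold change was 3.20 (SE 0.23, adjusted p = 1.70e-06). In vehicle at 9 h, the values that chose it, it had been at 15.1, 22.2, 17.5, 17.2 and 20.5 TPM. At the low dose at 24 h it ranged from 0.0897 TPM in MS-172 to 15.6 TPM in MS-173.

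ENSRNOT00000023302 rose from 4.63, 5.95, 6.76, 3.78 and 5.13 TPM in vehicle to 16.4, 15.5, 10.4, 12.8 and 11.1 TPM at the high dose. The log2 fold change was 1.49 (SE 0.18, adjusted p = 9.43e-05). Its mean in vehicle at 9 h, the level that chose it, was 17.8 ± 2.67 TPM (SD, n = 5). ENSRNOT00000011773 and ENSRNOT00000026489 rose by log2 fold changes of 0.73 (SE 0.15) and 0.63 (SE 0.12). The groups overlapped for the first, at 12.2 to 16.2 TPM in vehicle and 16 to 28 TPM at the high dose, and nearly touched for the second, at 15.8 to 18.6 and 19.0 to 30.3 TPM. The call of the first was lost without high-dose library MS-176 (log2 fold change 0.58) and that of the second without MS-179 or MS-180 (0.56 each).

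**Figure D4:**
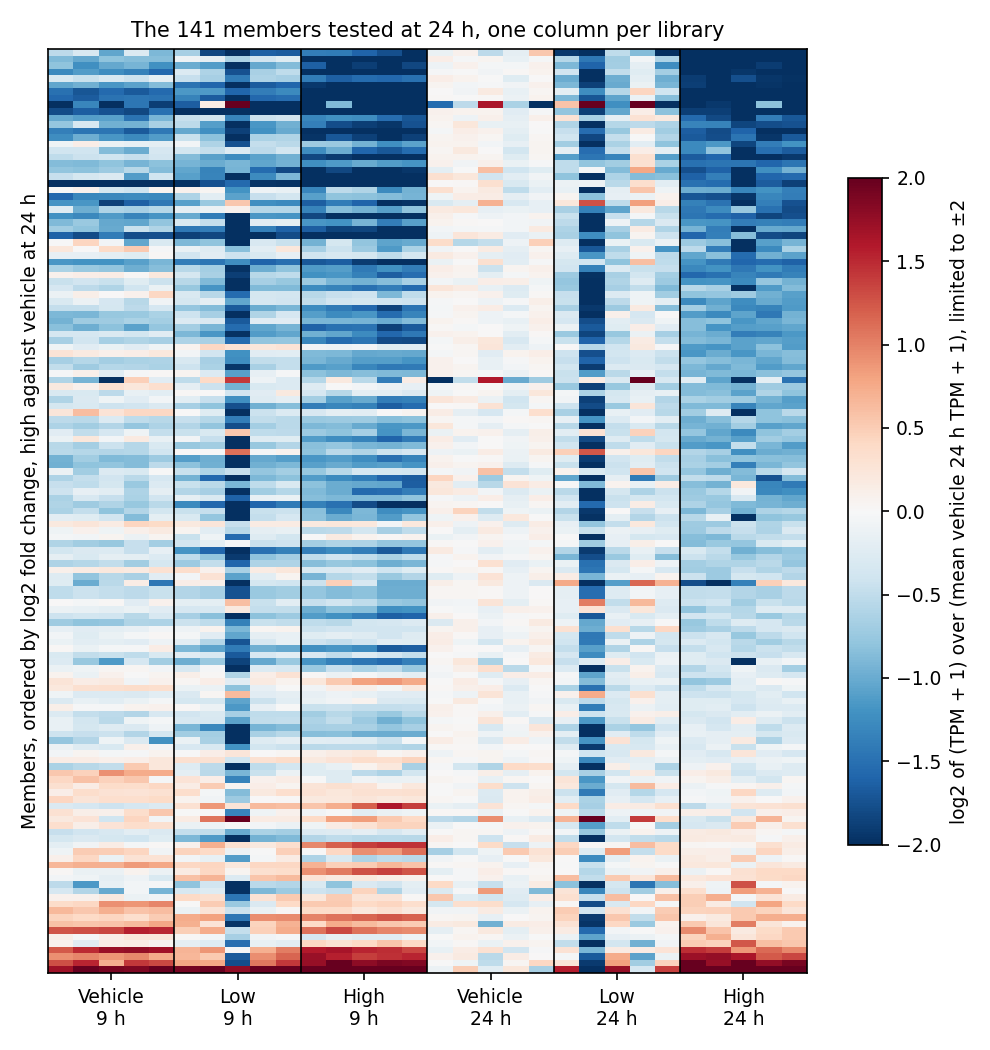
Level of the members tested at 24 h (rows, ordered by the log2 fold change for high dose against vehicle at 24 h) in the 30 cardiomyocyte libraries (columns, grouped by condition). Colour gives log2 of (TPM + 1) over the mean vehicle level at 24 h plus 1, limited to 2 in size. The upper rows are low (blue) in the 5 high-dose columns at both times, and the columns of MS-158 and MS-172, the third of the low-dose columns at 9 h and the second at 24 h, are low in most rows. Rows whose vehicle level was lower at 9 h than at 24 h are low in the vehicle columns at 9 h too. ENSRNOT00000017765 is one, with vehicle means of 7.82 TPM at 9 h and 24.4 TPM at 24 h.

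The 10 highest members did not move as one. At 24 h, 4 of them were lower at the high dose than in vehicle, and 4 without MS-178, against 5.23% of all transcripts at the same levels in either fit. ENSRNOT00000082548 was at 316.8, 315.5, 301.4, 258.00 and 304.8 TPM in vehicle and at 155.9, 149.3, 113.9, 118.6 and 134.7 TPM at the high dose, with a log2 fold change of -1.01 (SE 0.10, adjusted p = 2.13e-05). ENSRNOT00000036040 was at 137.9, 143.5, 163.9, 120.2 and 129.5 TPM in vehicle and at 63, 60.7, 65.5, 78.3 and 63.3 TPM at the high dose, with a log2 fold change of -0.93 (SE 0.09). The 2 groups did not overlap in either.

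ENSRNOT00000082744 fell from a mean of 181.8 ± 28.1 to 88.4 ± 10.5 TPM and ENSRNOT00000015752 from 133.7 ± 7.28 to 74.7 ± 7.90 TPM (SD, n = 5). Their log2 fold changes were -0.90 (SE 0.12) and -0.70 (SE 0.08). ENSRNOT00000079552 and ENSRNOT00000067649 had adjusted p of 0.00225 and 0.00356 and log2 fold changes of -0.50 and -0.38, which are smaller than the fold required for a call.

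The remaining 4 did not pass the adjusted p. ENSRNOT00000010891 was at 186.6, 175.1, 127.97, 173.04 and 191.6 TPM in vehicle and at 193.6, 191.8, 194.4, 167.5 and 183.1 TPM at the high dose, with a log2 fold change of 0.26 (SE 0.09, adjusted p = 0.0571). The 2 groups overlapped. ENSRNOT00000012109, ENSRNOT00000057880 and ENSRNOT00000004315 had log2 fold changes of -0.10 (SE 0.06), -0.15 (SE 0.09) and 0.16 (SE 0.07), with adjusted p of 0.24, 0.265 and 0.108. Of these 4, ENSRNOT00000010891, ENSRNOT00000012109 and ENSRNOT00000057880 were far below their groups in the low-dose libraries that stood apart. ENSRNOT00000010891 was at 18.4 TPM in MS-172 against 117.6 to 132.4 TPM in the other low-dose libraries at 24 h, and at 17.1 TPM in MS-158 against 77.7 to 92.7 TPM at 9 h.

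For the low dose against vehicle at 24 h, 0 members were called in either direction with edgeR. Among all 16998 transcripts tested, 0% were called, and the smallest adjusted p was 0.110. At an unadjusted p under 0.05 there were 34 members (24.1%) and 2028 of all transcripts (11.9%). DESeq2 called 2 members lower and 2 higher, against 0.194 and 0.83% of all transcripts. With limma 0 members were called in either direction, as were 0% of all transcripts. With library weights added, limma called 16 lower and 5 higher, against 1.52 and 2.6%. Leaving out MS-174 gave 7 lower and 2 higher, against 0.198 and 0.553%, and leaving out MS-172 gave 0 lower and 1 higher, against 0.0116 and 0.029%.

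The median log2 fold change of the members at the low dose was -0.10, against -0.01 for all transcripts tested. In 8 members all 5 low-dose libraries lay below all 5 vehicle libraries and in 2 above, against 2.11 and 1.95% of all transcripts. Without MS-172 these members again numbered 8 and 2, against 2.72 and 3.04%. The mean TPM was ordered from vehicle through low dose to high dose in 85 of the members tested (60.3%) and in 22.8% of all transcripts tested for the high dose. Without MS-172 these shares were 64.5 and 33.6%. The 2 low-dose libraries at the ends of the range, MS-172 and MS-174, thus differed by more than 2-fold in the summed TPM of the members.

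The 2 doses were also compared with each other at 24 h. Of 140 members tested, 39 were lower and 3 higher at the high dose than at the low dose, against 3.53% lower and 2.11% higher among all 17098 transcripts tested. The median log2 fold change was -0.52. Groups did not overlap for 47 members that lay lower and 8 that lay higher, against 7.78 and 8.72% of all transcripts. Without MS-172 and MS-178 they did not overlap for 68 and 12 members, against 14.3 and 14.8%. Without MS-172, 50 members were lower and 7 higher, against 4.7 and 3.71% of all transcripts. Without MS-173 the higher calls were 5, against 2.68%. Without MS-172 and MS-178, 54 members were lower and 8 higher, against 5.69 and 4.06%. One fit of all 6 cardiomyocyte groups gave 60 and 10, against 7.72 and 4.68%, and DESeq2 gave 49 and 8, against 6.46 and 3.81%.

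The 3 members higher at the high dose were ENSRNOT00000023302, ENSRNOT00000030737 and ENSRNOT00000090663, of which the last 2 were singled out after their values were seen. ENSRNOT00000030737 was at 5.04, 1.13, 5.53, 3.34 and 7.03 TPM at the low dose and at 11.1, 10.7, 18.9, 11.9 and 11.3 TPM at the high dose, a log2 fold change of 1.39 (SE 0.27, adjusted p = 0.0124). The 2 groups did not overlap, and its 5 vehicle libraries lay between them at 6.72 to 8.02 TPM, except that one low-dose library, MS-175, was within that range. All 8 members named for their decreases against vehicle were lower than at the low dose, with log2 fold changes from -1.61 to -2.46. The same high-dose libraries had picked these 8, so this is not a separate observation.

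At 9 h the same comparison was made with libraries that played no part in choosing the members. With all but 8 members tested, 42 were lower and 3 higher at the high dose than at the low dose, against 4.43% lower and 3.26% higher among all 18393 transcripts tested. The median log2 fold change was -0.49, against -0.01 for all transcripts. Groups did not overlap for 62 members that lay lower and 9 that lay higher, against 9.48 and 11% of all transcripts. Without MS-158 these members were 83 and 14, against 17.1 and 16.9%. Without MS-158, 52 members were lower and 7 higher, against 6.44 and 4.7%.

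Among the called members with a mean log2 CPM of 3 or more, the largest decreases at 9 h included transcripts already named at 24 h. ENSRNOT00000014229 was at 30.8, 29.1, 20.9, 25.2 and 27.7 TPM at the low dose and at 6.57, 6.55, 7.55, 5.91 and 6.55 TPM at the high dose, a log2 fold change of -2.31 (SE 0.16, adjusted p = 3.34e-05). ENSRNOT00000017948 was at 9.41, 7.18, 2.77, 7.04 and 7.86 TPM at the low dose and at 1.73, 1.81, 1.52, 1.67 and 1.42 TPM at the high dose, a log2 fold change of -2.26 (SE 0.15). The vehicle cultures at 9 h ranged from 15.8 to 18.4 TPM for the first and from 3.22 to 4.78 TPM for the second. The low-dose cultures stood above these ranges, except MS-158 for the second transcript, and the high-dose cultures below them. ENSRNOT00000000893 and ENSRNOT00000017765 had log2 fold changes of -1.66 (SE 0.20) and -1.50 (SE 0.12).

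ENSRNOT00000036040, the fourth highest member, also stood higher at the low dose than in vehicle at 9 h, at 146.6, 185.6, 170.5, 162.1 and 167.7 TPM against 130.4, 118.3, 127.1, 119.2 and 131.6 TPM. At the high dose it was at 132.98, 129.2, 134.5, 116.7 and 119.1 TPM, and the difference between doses, -0.76 on the log2 scale (SE 0.23), had an adjusted p of 0.0582. It was called in 4 of the other fits, among them DESeq2 (-0.77), and not with limma (-0.67), with library weights (-0.43), without the filter (-0.73) or with any of the 10 libraries left out, where it ranged from -0.85 to -0.45. The value of -0.45 was that without MS-158.

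The 3 members higher at the high dose at 9 h were ENSRNOT00000023302, ENSRNOT00000066534 and ENSRNOT00000030737. ENSRNOT00000066534 was at 10.8, 13.1, 10, 12.3 and 12.4 TPM at the low dose and at 18.9, 20.8, 24.5, 26.4 and 24.3 TPM at the high dose. The 2 groups did not overlap, and vehicle lay below both at 8.61 to 10.1 TPM except for the overlap with MS-158 at the low dose. The log2 fold change of 0.66 (SE 0.17, adjusted p = 0.0282) lost its call when any of 7 libraries was left out. ENSRNOT00000023302 had a log2 fold change of 0.66 (SE 0.10), with a call under each library left out.

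The comparison of high dose with vehicle at 24 h and that of high with low dose at 9 h share no library. Of the members tested in both, 34 were lower in both. They made up 54.0% of the 63 lower at 24 h and 81.0% of the 42 lower at 9 h. Among all 17188 transcripts tested in both, the shared decreases made up 44.5% of those at 24 h and 61.1% of those at 9 h. In addition 29 members were lower only at 24 h and 8 only at 9 h, 2 were higher in both, and 0 were called in opposite directions. Over all transcripts these counts were 607, 310, 375 and 3. Without MS-178 at 24 h and MS-158 at 9 h, 46 members were lower in both, which was 66.7% of the 69 lower at 24 h and 88.5% of the 52 lower at 9 h, against 53.1 and 60.4% for all transcripts. Across these members the 2 sets of log2 fold changes had a Pearson correlation of 0.69 and a Spearman correlation of 0.74, against 0.57 and 0.56 across all transcripts. These are descriptions across transcripts, which share the libraries of each comparison and are not independent.

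**Figure D5:**
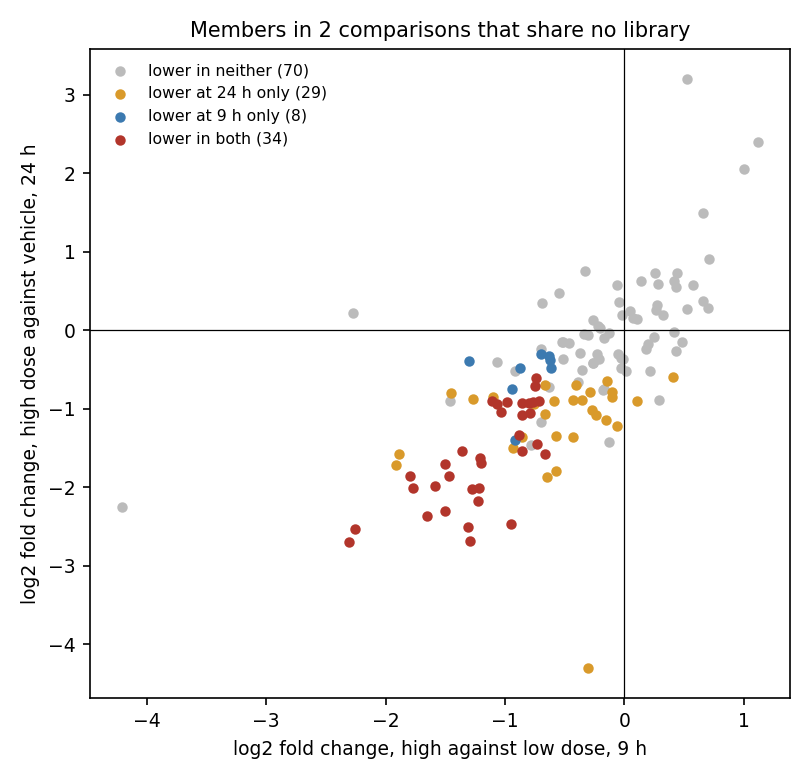
Log2 fold change of each member tested for high against low dose at 9 h (horizontal axis) and for high dose against vehicle at 24 h (vertical axis), coloured by whether it was called lower. The 34 members called lower in both lie in the lower left, and no member was called in opposite directions.

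The later vehicle cultures are compared with those at 9 h as a description, with no test, since vehicle at 9 h chose the members. The median ratio of vehicle at 24 h to vehicle at 9 h in TPM was 1.25, and 69.3% of the members stood higher at 24 h. Among the 13247 transcripts at or above the lowest member, the median ratio was 1.01 and 54.0% stood higher. The other ratios to vehicle at 9 h were 0.783 for the low dose and 0.704 for the high dose at 9 h, 0.907 for the low dose at 24 h and 0.744 for the high dose at 24 h. In the high-dose cultures at 24 h, 25 members stood above their level in vehicle at 9 h and the rest below.

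ENSRNOT00000006264 stood at 6.80, 7.64, 7.05, 6.66 and 8.55 TPM in vehicle at 9 h, below every vehicle value at 24 h, and its high-dose cultures at 24 h remained below those values. The other members named for their decreases also had lower means in vehicle at 9 h than at 24 h. Their high-dose means at 24 h lay below both. Their differences from vehicle at 24 h are thus larger than those from vehicle at 9 h.

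Within the high dose, 28 members were higher and 12 lower at 24 h than at 9 h, against 3.25% higher and 1.47% lower among all 18187 transcripts tested. The median log2 fold change was 0.24. Without MS-178, 36 members were higher and 10 lower, against 3.79 and 2.03%. All 5 libraries at 24 h lay above all 5 at 9 h for 33 members and below for 17, against 9.08 and 9.43% of all transcripts, and without MS-178 for 45 and 19, against 12 and 12.3%. Among the 10 highest members, ENSRNOT00000015752 rose by 1.14 on the log2 scale (SE 0.21), ENSRNOT00000067649 by 1.02 (SE 0.13), ENSRNOT00000012109 by 0.87 (SE 0.07) and ENSRNOT00000010891 by 0.85 (SE 0.05). ENSRNOT00000036040 fell by 0.77 (SE 0.07) between 9 and 24 h.

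Of the 8 members named for their decreases against vehicle at 24 h, ENSRNOT00000006264 and ENSRNOT00000017765 rose between 9 and 24 h within the high dose, by log2 fold changes of 1.22 (SE 0.25) and 0.72 (SE 0.08). The other 6 were not called in this comparison. Their log2 fold changes lay between -0.53 and 0.42.

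The difference between the doses was compared between the 2 times in one fit. With all but 8 members tested, 1 was called with a more negative and 1 with a more positive difference between high and low dose at 24 h than at 9 h, against 0.133 and 0.138% of all 18831 transcripts. At an unadjusted p under 0.05 there were 26 members (18.3%) and 1348 of all transcripts (7.16%). ENSRNOT00000028220, singled out after its values were seen, was at 26.7, 14.1, 22.9, 23.6 and 27.1 TPM at the low dose and 7.14, 6.93, 5.91, 9.84 and 9.21 TPM at the high dose at 24 h. At 9 h it had been at 16.4, 22, 11.8, 18.4 and 19.6 TPM and at 11.7, 14.3, 14.1, 13.7 and 13.1 TPM. The 2 doses did not overlap at 24 h and overlapped at 9 h only through MS-158.

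ENSRNOT00000090663 went the other way. It was at 2.70, 0.936, 2.59, 2.69 and 2.90 TPM at the low dose and at 4.48, 5.57, 3.76, 4.37 and 4.77 TPM at the high dose at 24 h, while at 9 h the high dose was at 2.19 to 2.77 TPM and the low dose at 1.52 to 3.06 TPM. The doses did not overlap at 24 h and overlapped at 9 h only through MS-158. The differences between times were -1.11 (SE 0.19, adjusted p = 0.0131) for ENSRNOT00000028220 and 1.13 (SE 0.17, adjusted p = 0.00525) for ENSRNOT00000090663 on the log2 scale. Without the 3 libraries that stood apart, 9 members had a more negative and 3 a more positive difference at 24 h, against 1.16 and 0.826% of all transcripts, so these counts depended on those libraries. DESeq2 called 4 and 2, against 0.653 and 0.595%, limma with library weights 12 and 8, against 2.71 and 2.87%, and one fit of the 6 groups 3 and 1, against 0.445 and 0.36%.

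The spread between libraries was also compared with that of other transcripts, without a test. The median coefficient of variation of TPM at 24 h was 18.1% for the members at the high dose, against 10.6% for the 13247 transcripts at or above the lowest member. Without MS-178 the values at the high dose were 12.8 and 8.24%. In vehicle at 24 h they were 11.4 and 9.85%.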

How the data were processed

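Poly-A-enriched libraries were sequenced, and the authors deposited, for each of 90 libraries, estimated counts and TPM per target from Kallisto 0.42.4 on Rnor_6.0. Estimated counts divide a read among the transcripts it fits. The tables hold 65166 targets, of which 25095 genomic intervals were left out of the tests. Groups came from the labels. The members and the gene lists were chosen with earlier results of these data known, and the members were chosen on the deposited TPM. Estimated counts were rounded and compared with edgeR 4.0.16 (R 4.3.3; filterByExpr, TMM, glmQLFit, glmQLFTest), using the groups of each comparison, with Benjamini-Hochberg adjustment over all transcripts tested. An SE is the log2 fold change over the square root of F. Named transcripts were the 10 highest members, the 8 largest decreases and 4 largest increases called at 24 h (high dose against vehicle) and 4 of each at 9 h (high against low dose, where 2 increases were available), with mean log2 CPM of at least 3, and those at the limits of the rule. On simulated data for high dose against vehicle at 24 h (16801 transcripts), 33 of 64 changes of 0.7 on the log2 scale, 38 of 58 of 1 and 63 of 69 of 2 were recovered, with 6 false calls. Alternatives were DESeq2 1.42.0, limma 3.58.1 on log2(CPM + 0.5), upper-quartile scaling, no filter, one fit of the 6 cardiomyocyte groups, transcripts with intervals, other fold and membership limits, and each library left out. Chosen after seeing the data were limma with library weights, the fits without MS-158, MS-172 and MS-178 together, and sums with a library left out. No comparison with vehicle at 9 h was tested.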

Additional observations from a re-analysis of the deposited data

Results flagged for a closer look

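Among the sets of 5 cardiomyocyte libraries examined (the summed TPM, the percent of members detected, and the TPM of each named member, per condition), 34 held a library separated from the other 4 by more than chance allows in 1 of 20 sets, where 8.4 would be flagged by chance. Low-dose library MS-158 at 9 h gave 12 of them, all as the lowest value. They were the summed TPM of 1520 and the TPM of ENSRNOT00000010891 (17.1), ENSRNOT00000012109 (21.2), ENSRNOT00000057880 (7.90), ENSRNOT00000067649 (32.9), ENSRNOT00000004315 (50.1), ENSRNOT00000079552 (44.5), ENSRNOT00000026489 (5.88), ENSRNOT00000058615 (2.14), ENSRNOT00000035722 (1.33), ENSRNOT00000030737 (1.96) and ENSRNOT00000090663 (1.52). Low-dose library MS-172 at 24 h gave 8, all as the lowest value. They were the share of members detected (85.3%) and the TPM of ENSRNOT00000010891 (18.4), ENSRNOT00000012109 (23.4), ENSRNOT00000057880 (9.34), ENSRNOT00000067649 (43.7), ENSRNOT00000011773 (4.12), ENSRNOT00000023302 (2.32) and ENSRNOT00000090663 (0.936).

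High-dose library MS-178 at 24 h had the lowest share of members detected in its group, 88.0%, and was the lowest for ENSRNOT00000014229 (2.85 TPM) and ENSRNOT00000000893 (1.75 TPM) and the highest for ENSRNOT00000030737 (18.9 TPM). MS-179 of the same group was the highest for ENSRNOT00000036040 (78.3 TPM) and ENSRNOT00000073643 (40.0 TPM). In vehicle at 24 h, MS-169 was the lowest in summed TPM (3119), for ENSRNOT00000082548 (258 TPM) and for ENSRNOT00000015752 (120.9 TPM), and MS-168 was the lowest for ENSRNOT00000026489 (15.8 TPM). In vehicle at 9 h, MS-151 was the lowest for ENSRNOT00000028220 (7.98 TPM) and MS-152 for ENSRNOT00000030737 (6.22 TPM). At the high dose at 9 h, MS-164 was the lowest for ENSRNOT00000057880 (78.2 TPM), and MS-161 had 97.3% of the members detected against 96.7% in each of the other 4.

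For 2 members the difference between high and low dose was not the same at the 2 times by the interaction test. It was lower at 24 h by -1.11 on the log2 scale for ENSRNOT00000028220 and higher by 1.13 for ENSRNOT00000090663.

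Vehicle hepatocyte library MS-183 at 24 h, which the rule left out, had a summed member TPM of 507, against 4.50 to 8.31 in the other 29 hepatocyte libraries. Of its estimated counts 8.33% were on transcripts, 249303 in all, and 610 of these were on members. It listed 71 members above 0. The highest of them, ENSRNOT00000090633 (439 bases), had 61.2 TPM on 14 counts.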

How the results depend on the processing

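No paired analysis was possible because the groups share no replicate numbers. The percentages give, for the same setting, the share of all transcripts tested that was called in that direction. For high dose against vehicle at 24 h, the count of lower members stayed between 59 and 69 (5.74 to 7.54%) and that of higher members between 8 and 10 (5.31 to 6.42%) with each library left out. A 2-fold limit gave 39 and 4 (3.31 and 3.13%). The higher count was 14 with a membership limit of 0.25 TPM and 14 with MS-183 kept in the rule, and such limits leave the shares of all transcripts as they were. For low dose against vehicle the lower and higher counts were 2 and 2 with DESeq2 (0.194 and 0.83%), 16 and 5 with library weights (1.52 and 2.6%), 4 and 3 in one fit of all 6 groups (0.172 and 0.864%), and 0 to 7 and 0 to 2 with a library left out (up to 0.198 and 0.553%). For high against low dose at 24 h the lower count was 60 in one fit (7.72%), 25 at 2-fold (1.88%) and 30 to 50 with a library left out (2.11 to 4.7%). The higher count was 8 with DESeq2 (3.81%), 5 with limma (2.54%), 9 with library weights (4.9%), 10 in one fit (4.68%), 8 without the libraries that stood apart (4.06%), 5 at 0.25 TPM, 7 at 1 TPM, 5 with MS-183 kept and 3 to 7 with a library left out (1.24 to 3.71%). For high against low dose at 9 h the lower count was 21 at 2-fold (2.12%) and 33 to 52 with a library left out (3.1 to 6.44%). The higher count was 5 with library weights (3.83%), 0 at 2-fold (1.61%), 7 at 0.25 TPM, 8 at 1 TPM and 2 to 7 with a library left out (2.38 to 4.7%). For the high dose at 24 against 9 h, a 2-fold limit gave 3 lower and 10 higher (0.522 and 1.32%), 0.25 TPM gave 17 higher, and leaving out a library gave 9 to 12 lower (1.09 to 2.03%) and 20 to 36 higher (2.56 to 3.79%). For the difference between doses at 24 against 9 h, lower counts were 4 with DESeq2 (0.653%), 12 with library weights (2.71%), 3 in one fit (0.445%), 9 without the libraries that stood apart (1.16%), 2 at 1 TPM and 1 to 3 with a library left out (0.0879 to 0.393%). Higher counts were 2 with DESeq2 (0.595%), 8 with library weights (2.87%), 3 without those libraries (0.826%), 2 with MS-183 kept and 1 to 2 with a library left out (0.0797 to 0.233%). The summed ratio of high dose to vehicle at 24 h was 0.675 in CPM without TMM scaling, and 0.607 to 0.625 in TPM with a library left out. With a library left out, the ratio of high to low dose at 9 h was 0.856 to 0.939 and that of low dose to vehicle at 24 h 0.693 to 0.831. The cause of these movements was not tested, apart from the limits of fold and membership, which change the counts by construction. No named member reversed. With a library left out, 499 called fold changes of named members kept their call and 31 lost it, while 1 not called gained a call. Under the other settings 446 kept it and 31 lost it, while 10 not called gained one. The other membership limits shared 94 (0.25 TPM), 86 (1 TPM) and 109 (MS-183 kept) members with the 150. For high dose against vehicle at 24 h the filter on low counts left out 9 members, and without it all but 1 of the 150 were tested. Of these, 62 were lower and 9 higher, against 4.2 and 3.95% of the 26457 transcripts tested without the filter.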
